A study of Mus musculus with 18 samples.

Results

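The genes described here are Chac1 and 9 further genes of the ATF4 stress response, Atf4, Atf5, Ddit3, Trib3, Sesn2, Ddit4, Asns, Phgdh and Psat1, measured in mouse quadriceps. They are 10 of the 20259 genes with a row of their own on the arrays, and each is represented by the row that names it alone and has the highest mean over all 18 arrays. Chac1 was chosen by its log2 signal, which was lower in F66 than in wt muscle, and its values in comparisons that hold the F66 arrays are given as a description and without a p. The question asked of the other 9 genes was whether they were lower in the same comparison. RNA came from male C57BL/6 mice 10 weeks of age, in 6 groups of 3 biological replicates. The wt group carried neither a transgene nor a dysferlin mutation, and the Dysf-/- group lacked functional dysferlin, a protein of muscle membrane repair. F66 mice carry follistatin (Fst) under a promoter and enhancer of myosin light chain that are active in skeletal muscle. That transgene is a single line and sits on the Y chromosome, and F66;Dysf-/- mice carry it together with loss of dysferlin. The last 2 groups were wt and Dysf-/- mice injected with ACVR2B/Fc, called injected wt and injected Dysf-/- here. ACVR2B/Fc is the ligand-binding domain of an activin receptor joined to a mouse antibody Fc part, and the mice received 4 weekly injections of 10 mg/kg from 6 weeks of age, labelled as 200 µg per injection. The labels give no treatment for the other 4 groups, and whether those mice received vehicle is not stated for the arrays.

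ATF4 is the transcription factor at the end of the integrated stress response. Kinases that sense amino acid shortage, heme shortage, double-stranded RNA or unfolded protein in the endoplasmic reticulum phosphorylate the initiation factor eIF2. Translation of most mRNAs then slows, while that of Atf4 mRNA increases, so the Atf4 mRNA measured here is not a measure of ATF4 protein. With C/EBP partners ATF4 binds composite C/EBP-ATF elements (CARE) and raises genes for amino acid synthesis and uptake, tRNA charging and stress signalling. CHAC1 is a gamma-glutamyl cyclotransferase that degrades glutathione in the cytosol. In skeletal muscle of mice ATF4 is best known for its part in fibre atrophy during fasting and immobilization.

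The values are log2 RMA signals, in which a difference of 1 is a doubling of signal. Arrays of 1 group correlated at r of 0.967 to 0.981 over all rows. The Dysf row read 6.76 to 7.10 on the 9 arrays of dysferlin-null mice and 8.48 to 8.91 on the others. The Fst row read 5.92 to 6.38 on the 6 arrays of transgenic mice and 5.10 to 5.85 on the others. Marker genes of other cells moved with the transgene. The summed level of 9 macrophage genes, on the log2 scale, was 9.37 to 9.53 in wt, 9.95 to 10.25 in Dysf-/-, 10.41 to 10.69 in F66 and 12.38 to 12.59 in F66;Dysf-/-, and that of 6 fibroblast genes was 10.49 to 10.67 in wt, 10.83 to 10.95 in Dysf-/-, 11.11 to 11.29 in F66 and 12.48 to 12.57 in F66;Dysf-/-. Endothelial and adipocyte genes were lower in both transgenic groups. In F66 against wt 4 of 5 endothelial and 3 of 4 adipocyte genes were called lower by limma, with medians of -0.38 and -0.57, and in F66;Dysf-/- against Dysf-/- 3 of 5 and 2 of 4, with medians of -0.20 and -0.54. Over all genes 13.6% were called in either direction in F66 against wt, and 18.4% were called lower in F66;Dysf-/- against Dysf-/-. Summed, the 5 endothelial genes were at 10.78 to 10.97 in wt and 10.46 to 10.55 in F66, and the 4 adipocyte genes at 9.86 to 10.32 in wt and 9.37 to 9.54 in F66. The part of these lists in the Chac1 values was not tested. The summed level of 7 genes of mature muscle fibres was 15.06 to 15.11 in F66;Dysf-/-, below all other arrays, and 15.17 to 15.23 in F66. In the groups without the transgene it lay at 15.20 to 15.30. In whole muscle, fewer cells of a type and less RNA per cell cannot be told apart.

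All 10 genes have a promoter window in RefSeq (mouse build GRCm38.p6), running from 250 bases before to 50 after the transcription start. The CARE letters TGATGNAA, on either strand, were found in the windows of 3 of the 10 genes, Chac1, Trib3 and Asns. The same letters were found in 3.97% of all 32851 windows and, counted by gene, in 1219 of 27025 genes. The 3 windows are shown because Chac1 and the other carriers of the letters differed in their values. The CARE match is in capitals in each.
Chac1: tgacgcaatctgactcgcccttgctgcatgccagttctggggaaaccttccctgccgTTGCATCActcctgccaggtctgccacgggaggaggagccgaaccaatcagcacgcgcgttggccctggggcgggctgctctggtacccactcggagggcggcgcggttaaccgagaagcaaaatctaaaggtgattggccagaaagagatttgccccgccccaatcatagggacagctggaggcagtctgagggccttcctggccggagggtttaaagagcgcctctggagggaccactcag
Trib3: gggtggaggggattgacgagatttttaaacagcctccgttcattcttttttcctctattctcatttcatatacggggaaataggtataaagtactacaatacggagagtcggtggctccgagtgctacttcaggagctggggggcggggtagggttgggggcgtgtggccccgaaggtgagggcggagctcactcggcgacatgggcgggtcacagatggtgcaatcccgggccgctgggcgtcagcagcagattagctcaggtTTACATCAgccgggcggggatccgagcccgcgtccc
Asns: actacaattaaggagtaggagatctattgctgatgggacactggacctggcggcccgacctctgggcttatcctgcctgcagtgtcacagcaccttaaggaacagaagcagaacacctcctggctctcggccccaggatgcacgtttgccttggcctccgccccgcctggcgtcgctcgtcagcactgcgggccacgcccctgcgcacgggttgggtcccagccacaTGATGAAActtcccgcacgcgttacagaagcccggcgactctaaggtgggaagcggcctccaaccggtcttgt
The Chac1 window is chr2:119350992-119351291 on the plus strand, with the match on the reverse strand beginning at position -193 from the start. The Trib3 window is chr2:152344011-152344310 on the minus strand, with a reverse-strand match beginning at position 15. The Asns window is chr6:7693160-7693459 on the minus strand, with a forward match beginning at position -23. A match is a run of letters and not a measured binding site, and the other 7 genes lack only these letters in these windows.

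Chac1 signal was low in both transgenic groups and in neither injected group. The wt arrays read 10.70, 11.19 and 10.97, those of injected wt 10.84, 11.06 and 9.80, and those of F66 8.59, 8.39 and 8.73. On the dysferlin-null background they read 11.26, 10.15 and 10.14 in Dysf-/-, 10.28, 10.26 and 10.35 in injected Dysf-/-, and 8.88, 8.96 and 8.94 in F66;Dysf-/-. All 6 transgenic arrays thus lay below all 12 others, and F66 lay below F66;Dysf-/- without overlap. The group means were, from the highest, 10.96 ± 0.25 in wt, 10.57 ± 0.67 in injected wt, 10.52 ± 0.65 in Dysf-/-, 10.30 ± 0.05 in injected Dysf-/-, 8.93 ± 0.04 in F66;Dysf-/- and 8.57 ± 0.18 in F66 (SD, n = 3). Among the 4 groups without the transgene each neighbour in that order overlapped the next.

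**Figure D1:**
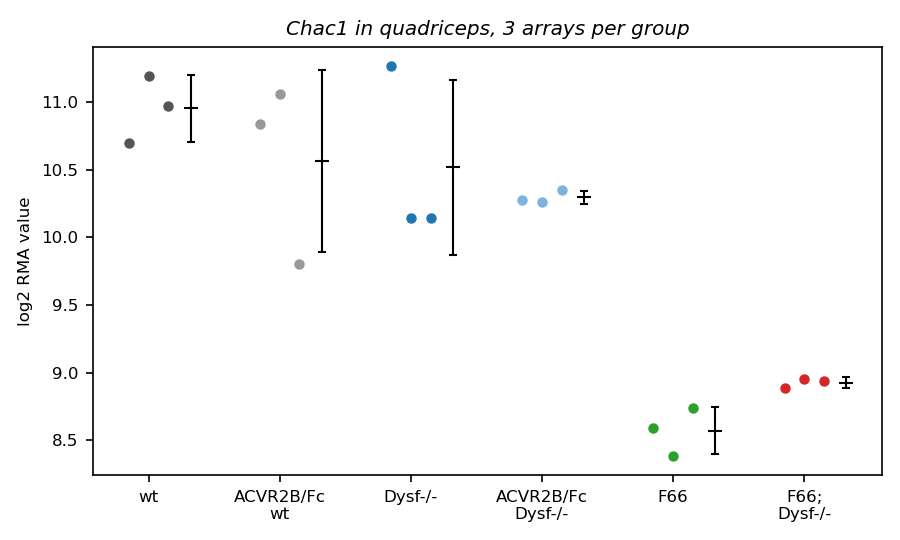
Chac1 on each of the 18 arrays, with the log2 RMA value on the y axis and the 6 groups on the x axis. Points are arrays and bars are the group mean with 1 SD. The 6 arrays of F66 and F66;Dysf-/- mice read 8.39 to 8.96, below the lowest of the 12 other arrays at 9.80.

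In F66 against wt the Chac1 difference was -2.39 on the log2 scale (SE 0.29, 95% interval -3.01 to -1.76), a signal 5.23-fold lower. It was the lowest difference of all 20259 genes, followed by Htra4 at -1.80 and Pfkfb3 at -1.53. This is the contrast for which the gene was chosen. On the dysferlin-null background, whose arrays the choice did not use although their values were known by then, Chac1 fell by 1.59 in F66;Dysf-/- against Dysf-/- (SE 0.29, interval -2.22 to -0.97, 3.01-fold lower, adjusted p = 0.00058 by limma). It ranked 6 from the lowest among all genes there. The methods' t-test also called it, but close to the threshold (adjusted p = 0.0499). Without Dysf-/- replicate 1, the highest array of its group, the limma difference was -1.22 (adjusted p = 0.00242). The transgene difference was smaller in size on the dysferlin-null background by 0.79 (interval -0.09 to 1.68), an interval that contains 0.

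None of the other 9 genes was lower in F66 than in wt past the threshold of an adjusted p under 0.05. By limma 0 of the 9 were called and 0 had an unadjusted p under 0.05, and the methods' t-test gave 0 before and 0 after adjustment. Of all genes tested 13.6% were called in this comparison, so that 0 of 9 is near that background. The median difference of the 9 was -0.03, equal at 2 decimals to that of all genes. Their differences ran from -0.16 for Phgdh to 0.52 for Ddit4, and the lowest bound of any of the 9 intervals was -0.43, for Phgdh. These intervals leave room for small falls. Chac1 was chosen for its own fall, the lowest of all genes, so that its size sets no measure for the 9.

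Of the transcription factors, Atf4 itself read 8.68, 8.65 and 8.69 in wt and 8.55, 8.69 and 8.67 in F66, so the groups overlapped. Its difference was -0.03 (interval -0.22 to 0.15). Atf5, a close relative of Atf4 that is likewise controlled by translation, ranged from 7.19 to 7.42 in wt and from 7.09 to 7.38 in F66. Ddit3 encodes CHOP, a pro-apoptotic C/EBP relative and a partner of ATF4. It ranged from 6.99 to 7.33 in wt and from 6.97 to 7.26 in F66, again overlapping.

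Trib3, Sesn2 and Ddit4 are targets that hold back growth signalling. Trib3 encodes a pseudokinase that binds AKT and feeds back on ATF4, and it read 6.65, 6.80 and 6.55 in wt and 6.30, 6.60 and 6.68 in F66, a difference of -0.13 (interval -0.32 to 0.05, adjusted p = 0.352 by limma). Sesn2, a leucine sensor upstream of mTORC1, read 7.80, 7.83 and 7.64 in wt and 7.71, 7.74 and 7.73 in F66, with the F66 arrays inside the wt range. Ddit4 encodes REDD1, an inhibitor of mTORC1, and it read 8.68, 9.16 and 9.46 in wt and 9.56, 9.59 and 9.71 in F66. Its 3 F66 arrays lay above all wt arrays, the opposite side from Chac1, but the difference of 0.52 (interval -0.36 to 1.40) was not called (adjusted p = 0.447 by limma).

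The remaining genes encode enzymes of amino acid synthesis. Asns makes asparagine, and it read 5.89, 5.85 and 5.71 in wt and 5.60, 5.90 and 5.59 in F66, a difference of -0.12 (interval -0.31 to 0.07). Phgdh, the first enzyme of serine synthesis, read 6.65, 6.43 and 6.37 in wt and 6.37, 6.22 and 6.37 in F66. The highest F66 array and the lowest wt array were equal at 2 decimals, with a difference of -0.16 (interval -0.43 to 0.11, adjusted p = 0.438 by limma). Psat1, the next enzyme of the same pathway, read 5.63, 5.62 and 5.26 in wt and 5.59, 5.62 and 5.43 in F66, where the groups overlapped. Sesn2 rests on 1 of 5 rows, and the other 4 correlated with it at r of -0.08 to 0.12 over the 18 arrays, so that its values are uncertain throughout. Phgdh values are uncertain too, since 8 rows carry that symbol alone and 2 more share it with a pseudogene copy, and the row used here correlated with the other 7 at r of no more than 0.247 over the 18 arrays.

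**Figure D2:**
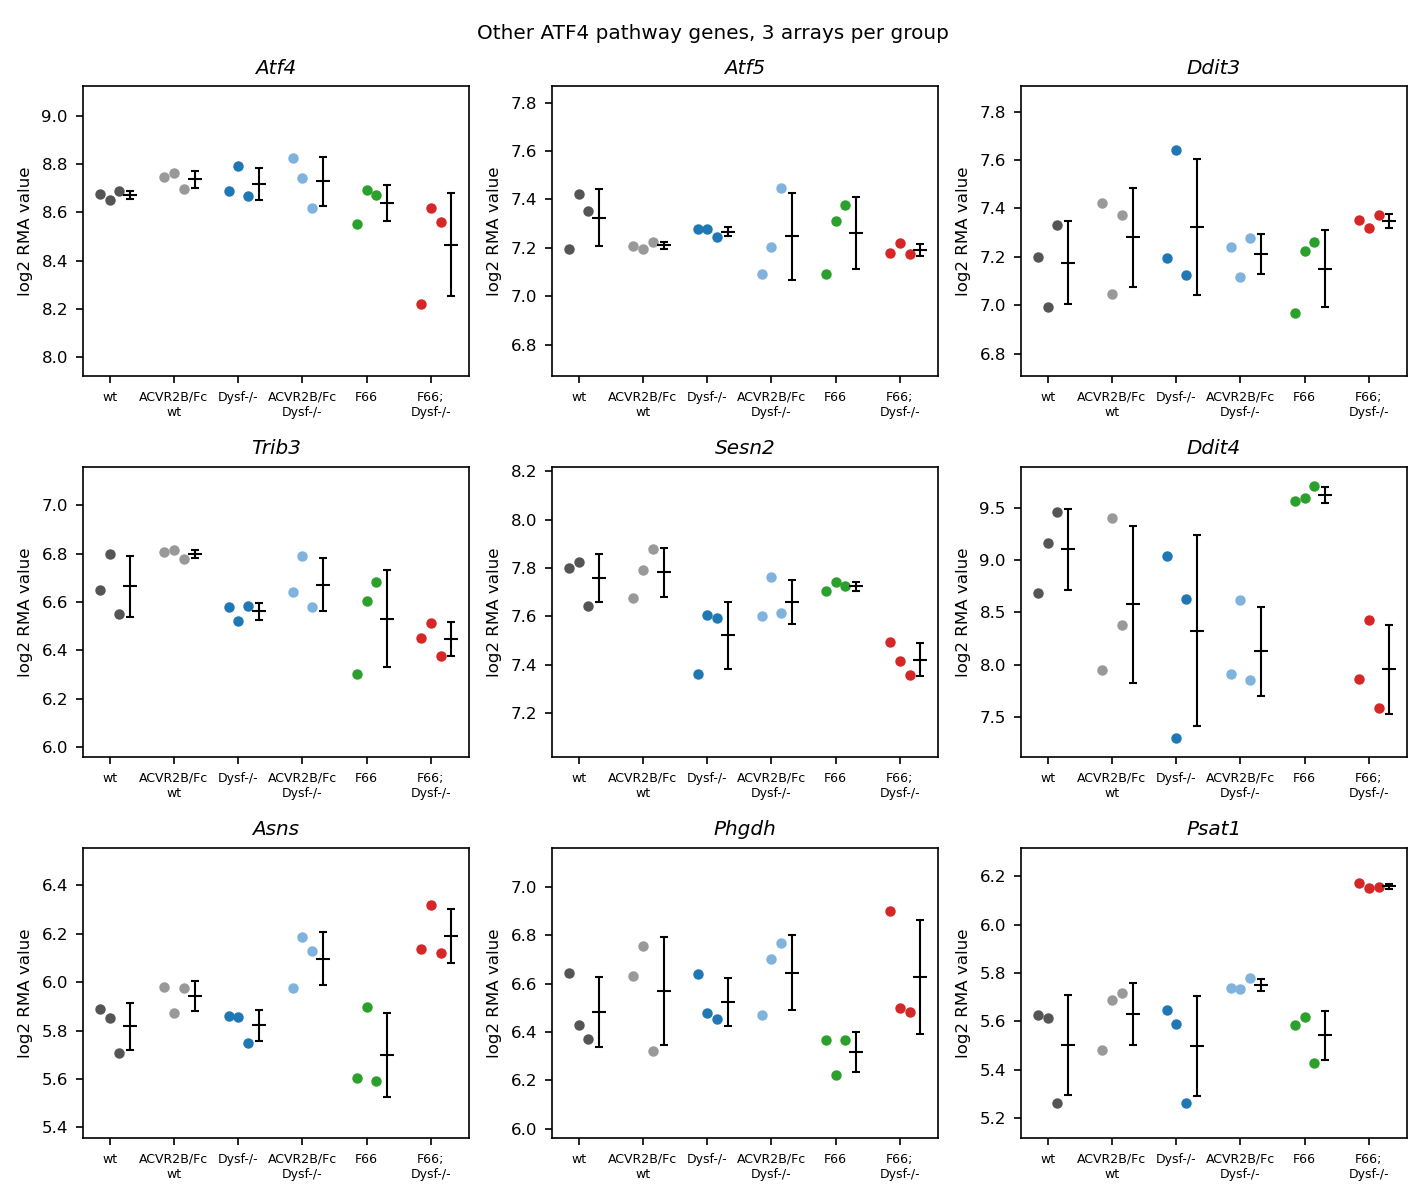
The other 9 genes on each of the 18 arrays, with log2 RMA values on the y axes and the 6 groups on the x axes. Points are arrays and bars are group means with 1 SD. In F66 the Ddit4 arrays (9.56 to 9.71) lie above those of wt (8.68 to 9.46), and those of Phgdh (6.22 to 6.37) end just below wt (6.37 to 6.65). In F66;Dysf-/- all 3 arrays of Psat1 (6.15 to 6.17) lie above every other array.

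With dysferlin absent, the transgene moved some of these genes and not in 1 direction. Between F66;Dysf-/- and Dysf-/-, 4 of the 10 genes were called, Chac1 and Atf4 lower and Asns and Psat1 higher, beside 33.6% of all genes called (15.2% higher and 18.4% lower). A count of 4 in 10 is near that background. The 9 genes other than Chac1 had a median difference of -0.08, against -0.09 for all genes.

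Psat1 showed the clearest rise. It read 5.65, 5.59 and 5.26 in Dysf-/- and 6.17, 6.15 and 6.15 in F66;Dysf-/-, a rise of 0.66 (SE 0.11, adjusted p = 0.000172 by limma). A second row of the gene, which followed the first at r = 0.909 over the arrays, differed by 0.78. Asns read 5.86, 5.85 and 5.75 in Dysf-/- and 6.14, 6.32 and 6.12 in F66;Dysf-/-, a rise of 0.37 (SE 0.09, adjusted p = 0.00407 by limma). For both genes the groups stood apart. The Asns call was lost with all rows tested (adjusted p = 0.0509 by limma). Phgdh, upstream of Psat1 in serine synthesis, read 6.64, 6.48 and 6.45 in Dysf-/- and 6.90, 6.50 and 6.48 in F66;Dysf-/-, which overlapped.

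Atf4 read 8.69, 8.79 and 8.67 in Dysf-/- and 8.22, 8.62 and 8.56 in F66;Dysf-/-, with 1 array well below the other 2. It fell by 0.25 (SE 0.09, 1.19-fold lower, adjusted p = 0.0343 by limma). In limma the call was lost without that array, F66;Dysf-/- replicate 1 (-0.13, adjusted p = 0.185), and also without Dysf-/- replicate 1 (0.0578), replicate 2 (0.117) or replicate 3 (0.050), with arrays centred on their medians (-0.16, adjusted p = 0.197), with the compared groups alone (0.117) and with all rows tested (0.199). The methods' t-test did not call it either (adjusted p = 0.226 over all genes, where limma gave 0.0343). Trib3 read 6.58, 6.52 and 6.58 in Dysf-/- and 6.45, 6.51 and 6.38 in F66;Dysf-/-, below but close, with a difference of -0.11 (interval -0.30 to 0.08). Sesn2 read 7.36, 7.61 and 7.59 in Dysf-/- and 7.49, 7.41 and 7.36 in F66;Dysf-/-, which overlapped. Ddit4 read 9.04, 7.29 and 8.63 in Dysf-/- and 7.86, 8.42 and 7.59 in F66;Dysf-/-, also overlapping, with an interval of -1.24 to 0.51. Ddit3 differed by 0.03 and was not called by limma. Atf5 differed by -0.08 with groups that did not overlap, not called by limma (adjusted p = 0.521) but called by the methods' t-test (adjusted p = 0.0476, within all genes tested). The macrophage and fibroblast sums given above were also far higher in F66;Dysf-/- than in Dysf-/-, and the 3 genes of regenerating fibres summed to 11.07 to 11.33 against 9.42 to 9.69. Of the muscle fibre genes 6 of 7 were called lower, beside 18.4% of all genes. The part of these cells in the values of the 10 genes was not tested.

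Whether the transgene difference depended on the background was also tested, and limma called the same 2 biosynthetic genes. The change in Psat1 was larger with dysferlin absent by 0.62 (SE 0.15, adjusted p = 0.0101 by limma) and that in Asns by 0.49 (SE 0.12, adjusted p = 0.0127 by limma). These were 2 of the 9 genes tested, and 16.5% of all genes were called for this difference, so that the count is near that background. Both calls were lost in the alternative with all rows tested. The test uses the same wt, Dysf-/-, F66 and F66;Dysf-/- arrays as the comparisons above.

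The 2 transgenic groups were also set against each other. Between F66;Dysf-/- and F66, 4 of the 9 genes tested were called, beside 34.7% of all genes (14.5% higher, 20.3% lower). Psat1 was higher by 0.61 (SE 0.11, adjusted p = 0.000323 by limma) and Asns by 0.49 (SE 0.09, adjusted p = 0.000405 by limma), and in both the groups stood apart. The methods' t-test did not call Asns (adjusted p = 0.0501). Ddit4 showed the largest difference of the 9, with all F66 arrays at 9.56 to 9.71 and all F66;Dysf-/- arrays at 7.59 to 8.42. It was lower in F66;Dysf-/- by 1.67 (SE 0.41, 3.17-fold, adjusted p = 0.00536 by limma). Sesn2 was lower by 0.30 (SE 0.08, adjusted p = 0.00655 by limma), though with the mean of its 5 rows in place of 1 row the limma difference was -0.12 (adjusted p = 0.375), and with all rows tested the adjusted p was 0.066. Chac1 differed by 0.36 (interval -0.27 to 0.98), given without a test.

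ACVR2B/Fc, the injected inhibitor of the same ligands, gave no called change in the 10 genes. In injected wt against wt limma called 0 of 10, with 0 at an unadjusted p under 0.05, and the methods' t-test called 0 after and 1 before adjustment. Few genes of any kind were called there, 0.0296% of all tested. Chac1 differed by -0.39 (interval -1.01 to 0.24, adjusted p = 0.827 by limma), and 1 injected array read 9.80 while the other 2 lay within the wt range. An interval that reaches -1.01 includes a signal lower by 1 log2 unit. Trib3 read 6.81, 6.81 and 6.78 in the injected mice and differed from wt by 0.13 (interval -0.06 to 0.32).

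In injected Dysf-/- against Dysf-/- limma likewise called 0 of 10, with 2 at an unadjusted p under 0.05, and the methods' t-test called 0 after and 1 before adjustment, beside 0.0247% of all genes. Chac1 differed by -0.22 (interval -0.84 to 0.41, adjusted p = 0.706 by limma), its injected arrays lying inside the Dysf-/- range. The sign rests on 1 array, since without Dysf-/- replicate 1, at 11.26, the difference was 0.15. The 2 genes below an unadjusted 0.05 were again Asns and Psat1. Asns read 5.98, 6.19 and 6.13 in the injected mice, above all Dysf-/- arrays, with a difference of 0.28 (interval 0.09 to 0.46, adjusted p = 0.142 by limma). Psat1 read 5.74, 5.73 and 5.78, also above all Dysf-/- arrays, with a difference of 0.25 (interval 0.02 to 0.48, adjusted p = 0.230 by limma). Neither passed the threshold, and both comparisons on this background share the Dysf-/- arrays.

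Loss of dysferlin alone gave no called change either. In Dysf-/- against wt limma called 0 of 10, with 1 at an unadjusted p under 0.05, and the methods' t-test called 0 before and 0 after adjustment, beside 0.489% of all genes. That 1 gene was Sesn2, whose Dysf-/- arrays lay below all wt arrays, with a difference of -0.24 (interval -0.40 to -0.07, adjusted p = 0.262 by limma). Chac1 differed by -0.44 (interval -1.06 to 0.19, adjusted p = 0.675 by limma), and its Dysf-/- arrays split into 1 at 11.26, above every wt array, and 2 near 10.14. Ddit4 differed by -0.78 (interval -1.66 to 0.10, adjusted p = 0.573 by limma).

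**Figure D3:**
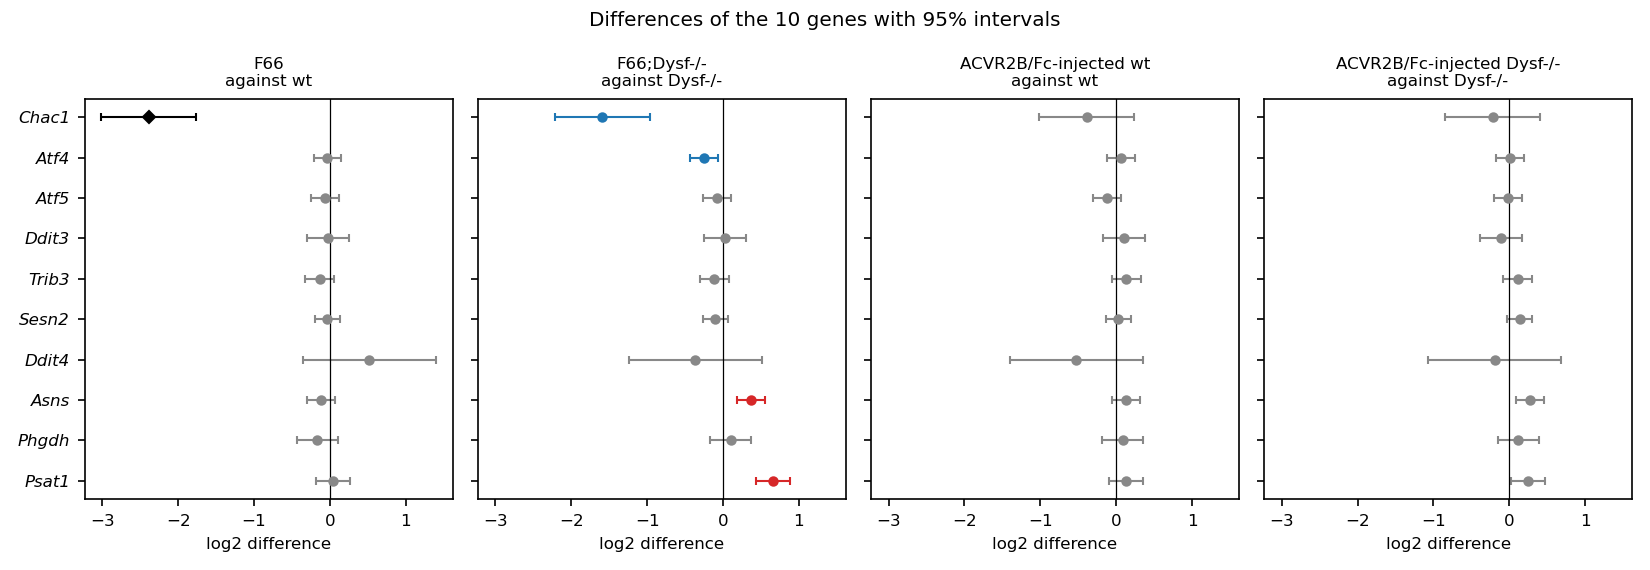
Log2 differences of the 10 genes with 95% intervals in 4 comparisons, each transgenic or injected group against its own background. Red and blue are genes called higher and lower at an adjusted p under 0.05, grey are not called, and the black diamond is Chac1 in the comparison for which it was chosen. The Chac1 interval lies from -3.01 to -1.76 in F66 and from -1.01 to 0.24 in injected wt.

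Set directly against each other, the transgenic groups read lower in Chac1 than the injected groups on both backgrounds. On the wt background this is a description only, since Chac1 was chosen for its low signal on the F66 arrays. In F66 against injected wt the Chac1 signal was 3.99-fold lower (interval of the log2 difference -2.62 to -1.37, no test), the groups standing apart. Of the other 9 genes limma called 0, with 3 at an unadjusted p under 0.05, and the methods' t-test called 0 before and 0 after adjustment, beside 14.4% of all genes. These 3 were Trib3 at -0.27 (adjusted p = 0.0567), Asns at -0.25 (0.0731) and Ddit4 at 1.05 (0.102), all by limma. Each was called in 1 limma fit with an array left out, Trib3 without F66 replicate 3 (-0.34, adjusted p = 0.0288), Asns without F66 replicate 2 (-0.35, 0.0158) and Ddit4 without injected wt replicate 2 (1.46, 0.0371).

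On the dysferlin-null background, F66;Dysf-/- against injected Dysf-/-, 4 of 10 genes were called, beside 44.4% of all genes (16.2% higher, 28.2% lower), a share near the background. Chac1 was lower by 1.37 (SE 0.29, 2.59-fold, adjusted p = 0.00193 by limma). Psat1 was higher by 0.41 (SE 0.11, adjusted p = 0.00662 by limma). Atf4 was lower by 0.26 (SE 0.09, adjusted p = 0.0223 by limma) and Sesn2 by 0.24 (SE 0.08, adjusted p = 0.0222 by limma). The last 2 calls did not hold with arrays centred on their medians, which differ by -0.13 between these groups (adjusted p = 0.272 and 0.293 by limma). The Atf4 call was also lost without injected Dysf-/- replicate 1 (0.0807) or 2 (0.0593) or F66;Dysf-/- replicate 1 (0.123), and the Sesn2 call without injected Dysf-/- replicate 2 (0.101) or F66;Dysf-/- replicate 2 (0.0523) or 3 (0.0806). Trib3 lay at -0.22 (adjusted p = 0.0518 by limma) and was called without injected Dysf-/- replicate 3 (0.0451).

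Over all 6 groups, 5 of the 9 genes tested differed by the limma F test, beside 49.2% of all genes. They were Psat1 (adjusted p = 0.0007 by limma), Asns (0.00184), Sesn2 (0.00592), Ddit4 (0.0219) and Trib3 (0.0386). Atf4 (0.0902), Phgdh (0.234), Ddit3 (0.641) and Atf5 (0.738) did not pass.

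The genes also differed in how far arrays of 1 group spread. Ddit4 had an SD of 0.91 among the 3 Dysf-/- arrays, larger than that of 99.9% of all genes in this group, and of 0.75 in injected wt. In F66 its SD was 0.08, below the median of all genes at 0.09. Chac1 had SDs of 0.65 in Dysf-/- and 0.67 in injected wt, each above 99.6% of genes, and of 0.04 in F66;Dysf-/- and 0.05 in injected Dysf-/-. The 3 replicates of a group therefore bound changes in these 2 genes less closely than changes in the others.

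The wider stress pathway was described with 107 further genes in 8 lists. In F66 against wt 11 of the 107 were called higher and 7 lower, a share of 16.8% beside 13.6% of all genes. Among 18 ATF4 partners and other stress targets, Gadd45a, a growth arrest and DNA damage gene also known as an ATF4 target in atrophying mouse muscle, rose by 1.45 (SE 0.10, adjusted p = 2.27e-07 by limma). Stc2, a secreted glycoprotein, rose by 0.62 (adjusted p = 0.0173 by limma), while Ndrg1 fell by 0.30 (0.00812) and Vegfa, the vascular growth factor, by 0.23 (0.0317). Among 10 enzymes of serine, glycine and one-carbon metabolism, Gpt2, the mitochondrial alanine transaminase, fell by 0.55 (adjusted p = 0.000103 by limma) and Aldh18a1, of proline synthesis, rose by 0.43 (0.00234). None of 11 amino acid transporters was called by limma, with 5 at an unadjusted p under 0.05 and 0 by the adjusted the methods' t-test. With arrays centred on their medians 2 transporters were called higher. Of 13 tRNA synthetase genes limma called Mars1 alone, lower by 0.26 (adjusted p = 0.0189), and none with arrays centred, while the methods' t-test called 2. Of 13 genes of the eIF2 kinases and their control limma called Eif2b4 alone, a subunit of the eIF2 exchange factor, higher by 0.35 (adjusted p = 0.00311), and the methods' t-test called 0.

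Glutathione turnover, the pathway in which CHAC1 acts, moved in both directions. Of its 12 genes measured 2 rose and 2 fell in F66 against wt, beside 13.6% of all genes called in either direction. Ggct, a gamma-glutamyl cyclotransferase like CHAC1, fell by 0.48 (adjusted p = 0.00586 by limma) and Ggt5, a gamma-glutamyltransferase family enzyme of the cell surface, by 0.49 (0.00165). Gpx1, a glutathione peroxidase, rose by 0.59 (adjusted p = 0.000558 by limma) and Cndp2, a dipeptidase, by 0.19 (0.0448). On the dysferlin-null background 2 of the 12 rose, Gpx1 by 0.93 (adjusted p = 1.5e-06 by limma) and Cndp2 by 0.53 (3.43e-06), and 5 fell, beside 15.2% of all genes higher and 18.4% lower. The falls included Oplah, an oxoprolinase, by 0.45 (adjusted p = 0.000329 by limma) and Ggct by 0.47 (0.0029). Chac2, the nearest relative of Chac1, fell by 0.36 there (adjusted p = 0.00913 by limma). Among 12 relatives of the genes described here, limma called Trib2 alone in F66 against wt, lower by 0.38 (adjusted p = 0.0159), and the methods' t-test called 0.

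In F66;Dysf-/- against Dysf-/- 28 of the 107 genes were called higher and 26 lower, a share of 50.5% beside 33.6% of all genes. The list that moved to 1 side was that of 19 chaperone and folding genes under IRE1 and ATF6, the other arms of the unfolded protein response. Of these 14 rose and 0 fell, with a median of 0.38 against -0.09 over all genes, and 16 rose with arrays centred. Edem1, of endoplasmic reticulum degradation, rose by 0.95 (adjusted p = 1.88e-08 by limma), Sdf2l1 by 0.90 (1.47e-07), Pdia4, a disulfide isomerase, by 0.78 (1e-06) and Hspa5, the chaperone BiP, by 0.56 (2.16e-06). In F66 against wt 5 of the 19 rose and 0 fell, among them Edem1 by 0.39 (adjusted p = 0.000723 by limma) and Atf6 by 0.33 (0.00133), whereas the methods' t-test called 0 of the 19 there.

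The amino acid transporters gave 4 higher and 1 lower of 11 in the same comparison. Over all genes 15.2% were called higher and 18.4% lower there, and these shares apply to each list count in this paragraph. Slc38a1, a glutamine transporter, rose by 1.85 (adjusted p = 6.98e-09 by limma), and Slc7a5 and Slc3a2, the chains of the large neutral amino acid transporter, by 0.64 (9.66e-06) and 0.37 (5.61e-05). Slc38a1 was also the 1 list gene called in Dysf-/- against wt, higher by 0.58 (adjusted p = 0.0361 by limma). Of 13 tRNA synthetase genes 6 fell and 1 rose, with Mars1 lower by 0.47 (adjusted p = 6.28e-05 by limma) and Iars by 0.29 (0.000602), though 2 fell and 1 rose with arrays centred. The serine, glycine and one-carbon list gave 2 higher and 5 lower of 10, with Gpt2 lower by 1.03 (adjusted p = 2.71e-08 by limma). The stress targets gave 2 higher and 5 lower of 18, not far from those shares, or 5 and 3 with arrays centred. Gadd45a rose by 0.75 (adjusted p = 2.51e-05 by limma) and Atf3, a stress-induced ATF family member, by 0.91 (0.00106), while Vldlr, a lipoprotein receptor, fell by 0.56 (0.000178). In the eIF2 list Eif2ak3, the kinase PERK, rose by 0.33 (adjusted p = 0.000868 by limma), and Eif2s2, the beta subunit of eIF2, fell by 0.70 (8.02e-06). Ppp1r15a, the stress-induced eIF2 phosphatase subunit GADD34 and itself an ATF4 target, fell by 0.42 (adjusted p = 0.00607 by limma). As noted, macrophage, fibroblast and regenerating fibre genes were higher in these arrays, and their part in the list counts was not tested.

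**Figure D4:**
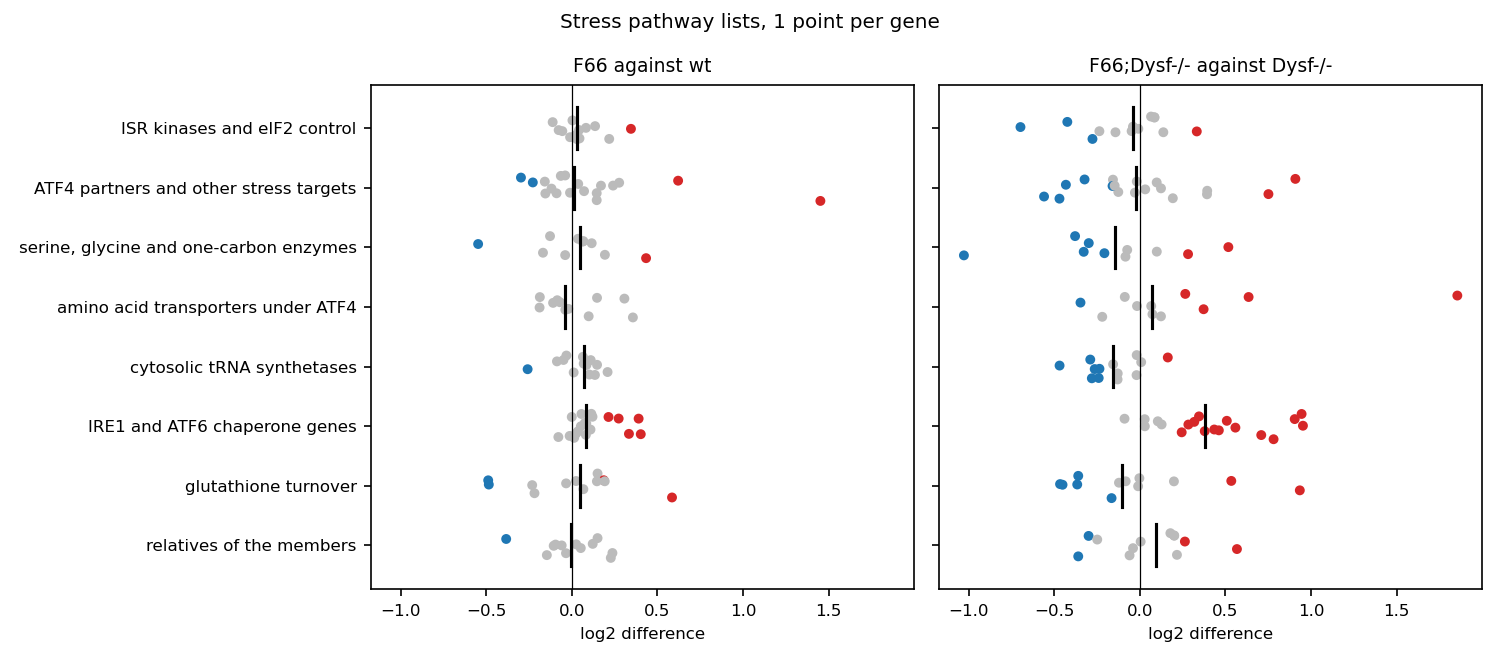
Log2 differences of the 107 genes of 8 stress pathway lists, 1 point per gene, in F66 against wt and in F66;Dysf-/- against Dysf-/-. Red and blue points were called higher and lower by limma, grey were not called, and bars are list medians. In F66;Dysf-/- the chaperone list has 14 red and 0 blue points and a median of 0.38, while the other lists hold both colours.

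Neither ACVR2B/Fc comparison called any of the 107 genes by limma. Of all genes 0.0296% were called on the wt and 0.0247% on the dysferlin-null background, so that 0 of 107 is near that background. At an unadjusted p under 0.05 there were 9 of the 107 on the wt and 14 on the dysferlin-null background. The methods' t-test after adjustment called 0 of the 107 in each.

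Promoter letters were also counted in the lists. The endoplasmic reticulum stress element (ERSE), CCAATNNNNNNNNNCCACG on either strand, was found in 0.119% of all windows and, counted by gene, in 37 of 27025 genes. It was found in 8 of the 16 chaperone list genes with a window and in none of the 10 genes described here. The Hspa5 window, chr2:34771840-34772139 on the plus strand, is shown as the example, with its forward match at position -65 in capitals.
Hspa5: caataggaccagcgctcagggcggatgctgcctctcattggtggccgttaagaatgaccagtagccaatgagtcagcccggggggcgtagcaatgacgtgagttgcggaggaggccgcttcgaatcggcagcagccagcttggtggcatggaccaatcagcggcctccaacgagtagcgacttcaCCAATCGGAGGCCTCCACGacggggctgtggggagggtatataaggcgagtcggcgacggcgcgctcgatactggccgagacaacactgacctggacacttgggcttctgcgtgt
Of these 8 genes 7 were measured, and 7 rose in F66;Dysf-/- against Dysf-/-, by 0.28 to 0.71. These 7 are among the 14 of 19 chaperone list genes already counted as higher above. Whether the letters go with the rise was not tested. The CARE letters were found in 18 genes of the lists and of the 10 together, among them 5 of 9 tRNA synthetase list genes with a window, 6 of 16 stress targets and 0 of 16 chaperone genes. Of these 18 genes 16 were measured. In F66 against wt Chac1 stood at -2.39 and was not tested. The other 15 ran from -0.13 for Trib3 to 0.24 for Atf3, and limma called 0 of them, with 1 at an unadjusted p under 0.05. In that comparison 13.6% of all genes were called, and with 15 genes a count of 0 is not far from that share. On the dysferlin-null background 2 of the 16 were higher, Atf3 and Asns, and 7 were lower, Chac1 among them, with a median of -0.12. Over all genes 15.2% were higher and 18.4% lower there, with a median of -0.09.

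Genes whose values followed Chac1 most closely over the 18 arrays were sought among all 20258 others, as a description, since the arrays share the same 6 groups and the transgenic arrays set most of the likeness. The closest was St3gal2, a sialyltransferase, at r = 0.945, with group means of 8.53 in wt, 8.40 in Dysf-/-, 8.03 in F66 and 8.06 in F66;Dysf-/-. Next were Gcnt2 (0.915), Cdc42bpg (0.912), Kcna2, a potassium channel (0.910), and Misp3 (0.903). All 5 were low in both transgenic groups but by much less than Chac1, from -0.30 for Gcnt2 to -0.69 for Kcna2 in F66 against wt. The least alike were Ttll1 (r = -0.947), Cd109 (-0.942) and Lsm7 (-0.942), which were high where Chac1 was low. None of the 9 other stress genes stood near the top. Trib3 came first among them at r = 0.563 and rank 2841, then Atf4 at 0.478 and rank 4529, while Ddit4 was at -0.03, Asns at -0.07 and Psat1 at -0.39. Deviations of the arrays from their group means gave another order. With Chac1 they correlated at r = 0.49 for Ddit4, 0.48 for Phgdh and -0.63 for Sesn2. The remaining genes lay from -0.39 for Ddit3 to 0.15 for Trib3, and none of these values was tested.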

How the data were processed

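The 18 arrays of quadriceps RNA were of the Affymetrix Mouse Exon 1.0 ST type. The authors deposited log2 values per transcript cluster, made with RMA in Partek against mm9 according to the submitters' processing notes, with versions not stated. RMA corrects background, gives all arrays nearly 1 distribution and so removes part of a change shared by most genes. Of 115830 rows, 25539 carry 1 symbol in the platform annotation, 2300 carry several and were not named, and the others are not listed there. Arrays were grouped by their labels.

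Differences were fitted with limma 3.58.1 (lmFit, eBayes, all 18 arrays, no covariates, prior degrees of freedom 3.2) in R 4.3.3, with p-values adjusted by Benjamini-Hochberg over 20259 genes in each of 9 comparisons and called under 0.05. An exact permutation of 3 against 3 arrays cannot go below p = 0.1, so none was used. The methods' t-test is the 2-group test of the study's general statistics, run on the same values. The 10 genes and all lists were chosen with earlier results of these data known. Named genes were the 10, up to 4 called genes of smallest p per list and transgene comparison, and the 5 most and 3 least like Chac1. Htra4, Pfkfb3, Hspa5's promoter and genes named for a promoter match were added after their values were seen. The fit and the motif search were tested on simulated data. Promoters came from RefSeq and their letters were searched with Python 3.11.15, with figures from matplotlib 3.10.9. Alternatives were the compared groups alone, the t-test, a replicate block, the mean of a gene's rows, all rows tested, dim genes left out, arrays centred or quantile normalized again, trended robust eBayes and each array left out.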

Additional observations from a re-analysis of the deposited data

Results flagged for a closer look

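The transgene effect was called as different between backgrounds for 2 of the 9 genes tested, beside 16.5% of all genes, a count near that background. For Asns, asparagine synthetase, the difference between F66;Dysf-/- and Dysf-/- exceeded that between F66 and wt by 0.49 on the log2 scale (adjusted p = 0.0127 by limma), from -0.12 on the wt to 0.37 on the dysferlin-null background. For Psat1, a serine synthesis enzyme, the excess was 0.62 (adjusted p = 0.0101 by limma), from 0.04 to 0.66. The direction was kept in all alternatives run, with a range of 0.43 to 0.59 for Asns and 0.50 to 0.74 for Psat1. Both calls were lost with all rows tested (adjusted p = 0.117 for Asns and 0.0867 for Psat1 by limma). Macrophage, fibroblast and regenerating fibre genes were also higher in F66;Dysf-/-, and their part in these values was not tested.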

How the results depend on the processing

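Chac1 in F66 against wt lay between -2.51 and -2.27 in every alternative. No called difference of any of the 10 genes changed sign. Counts of called genes among the 10 moved by over 1.5 times as follows. With all rows tested they were 2 in place of 4 in F66;Dysf-/- against Dysf-/-, 1 in place of 4 in F66;Dysf-/- against injected Dysf-/-, 2 in place of 5 over the 6 groups and 0 in place of 2 for the difference of the transgene effect, where this alternative adjusts over more rows (Asns adjusted p = 0.117 and Psat1 0.0867 by limma). The methods' test gave 2 in place of 4 in F66;Dysf-/- against injected Dysf-/- and 3 in place of 5 over the 6 groups, and centred arrays gave 2 in place of 4 in the former. In F66 against injected wt, 0 became 1 (Trib3) with dim genes left out, which tests fewer genes. Smaller moves were from 4 to 3 or 5. In F66;Dysf-/- against F66 the count was 3 with the methods' test, the mean of rows or all rows and 5 with centring, in F66;Dysf-/- against Dysf-/- it was 3 with the compared groups alone or centring, and in F66;Dysf-/- against injected Dysf-/- it was 3 with the mean of rows and 5 with the replicate block, dim genes left out or trended eBayes. Over the 6 groups it was 4 in place of 5 with the mean of rows or centring. Leaving out 1 array gave 0 to 1 genes in F66 against injected wt and 2 to 5 in F66;Dysf-/- against injected Dysf-/-. Apart from constructions named here, the cause was not tested.

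Replicate numbers were not used as pairs in the main fit. Deviations of same-numbered arrays correlated at r of -0.08 to 0.29 with a median of 0.01, and those of other-numbered arrays at -0.31 to 0.20 with a median of -0.01. Of the same-numbered pairs 15.6% lay above 0.1, against 3.33% of the others, so that a weak shared part is not excluded. With a replicate block the genes called in injected Dysf-/- against Dysf-/- went from 5 to 87. The replicate block moved the count in F66 against injected wt from 0 to 1 (Trib3, adjusted p = 0.048 by limma). With 3 arrays per group precision rests on the number of arrays, no detection calls were used, and the difference of array medians exceeded 0.1 only between F66;Dysf-/- and injected Dysf-/- (-0.13).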
